A study of Mus musculus with 2 samples.

Results

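Aminoacyl-tRNA synthetases join each amino acid to its tRNA. Their mRNAs were followed in mouse NIH3T3 fibroblasts, an established line, before and during stress of the endoplasmic reticulum. Members were all coding transcripts on the array whose gene name is a synthetase name (Aars to Yars, with or without a final 2). This gave 37 genes with 38 transcript accessions and 61 probes, of 18754 coding accessions on the array. They were split by the compartment their enzyme serves. The cytosolic group held 18 genes, the mitochondrial group held 17 genes whose names end in 2, and Kars and Gars, each a single gene that makes the enzyme of both compartments, were kept apart as 2 dual genes. The choice used names only and no measured value.

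Untreated NIH3T3 cells in medium with 10% serum were compared with NIH3T3 cells in the same medium given 10 µM thapsigargin, which blocks the pump that fills the endoplasmic reticulum with calcium, for 3 h. Lysates were run on a sucrose gradient of 10 to 40%, and RNA was collected as a polysome-bound fraction (P, labelled with Cy3) and as a joint fraction of monosomes and free RNA (FM, labelled with Cy5). Per the study, P held more RNA than FM in control cells and less under stress, and these proportions were kept for labelling. The RNA input of each channel thus differed between the arrays. Each condition was measured on 1 two-colour array with RNA pooled from 3 preparations, so no difference between conditions has a replicate check and none was tested. The only spread available is that between different probes of the same mRNA, which holds the error of the array but not that of the cultures.

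A synthetase recognises one amino acid and the tRNAs that carry it, and the charged tRNA then delivers that amino acid to the ribosome. Cytosolic enzymes serve the translation of nuclear mRNAs, and a mostly separate set of nuclear genes makes the enzymes that are imported into mitochondria for the few proteins encoded there. In animal cells several cytosolic synthetases sit in a multisynthetase complex with scaffold proteins. During endoplasmic reticulum stress the kinase PERK phosphorylates the initiation factor eIF2α and lowers translation of most mRNAs, while the transcription factor ATF4 is made and activates amino acid genes, many synthetase genes among them, through sites called C/EBP-ATF response elements.

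The values rest on 60-base probes. The probes below belong to mRNAs with different responses, and each spans a splice junction, so its genomic interval is longer than the probe. They are written 5′ to 3′ in lower case, on mm9 as given with the array. The Eprs probe lies on the plus strand at chr1:187244117-187248199, the Iars probe on the plus strand at chr13:49824084-49825393, the Aars probe on the plus strand at chr8:113573773-113574271, the Mars probe on the minus strand at chr10:126736485-126737031 and the Vars2 probe on the minus strand at chr17:35793590-35793732. Exon and UTR annotation of this build was not used here.
Eprs: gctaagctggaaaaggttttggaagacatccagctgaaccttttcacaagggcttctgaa
Iars: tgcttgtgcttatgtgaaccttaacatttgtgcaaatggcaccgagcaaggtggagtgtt
Aars: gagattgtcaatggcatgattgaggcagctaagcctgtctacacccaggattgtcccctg
Mars: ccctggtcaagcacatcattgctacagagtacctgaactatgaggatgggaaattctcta
Vars2: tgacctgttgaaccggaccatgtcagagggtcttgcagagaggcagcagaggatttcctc

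Eprs and Iars had a larger part of their signal in polysomes under stress, Aars stayed in polysomes, and the methionyl enzyme Mars and the mitochondrial valyl enzyme Vars2 had a smaller part there. Polysome association is given as log2 P/FM, in which the background-subtracted P signal is divided by the FM signal. A, which the study takes as relative abundance, is the average of the log2 signals of P and FM. It weighs both fractions alike, so a shift of signal between them can raise A without a rise in their sum. A was compared between the arrays for the same mRNA, and the brightness of a spot is not read as the amount of one mRNA against another. The amount of an mRNA per cell and the number of cells that hold it cannot be told apart in these lysates.

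The 2 arrays were of similar quality. Between 42.5% and 46.3% of the spots were well above background in each channel, the mean signal per channel lay between 463 and 1386, and none of the 153 negative control spots passed the filter of A above 4.5. No spot of a synthetase was saturated or an outlier. All 7 fibroblast markers passed the filter, while Cdh1 and Epcam of epithelium, Pecam1 and Cdh5 of endothelium and Ptprc of leukocytes did not. Hspa5, the chaperone BiP that is induced by endoplasmic reticulum stress, had an A of 11.91 in control and 13.87 in stressed cells. Of 18754 coding accessions, 10033 passed the filter on both arrays, and their median log2 P/FM changed by -0.71 and their median A by 0.37. Changes are therefore given beside these medians. The 10 spike-in probes changed by -2.44 at the median (-2.67 to -2.16), and on their scale the median of all mRNAs was 1.73 higher under stress, so the sign of a change depends on that choice while differences between genes on the same array do not.

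Of the 38 synthetase accessions, 35 passed the filter on both arrays, namely 18 cytosolic, 2 dual and 15 mitochondrial. The 3 that did not were a second Dars accession (NM_145507), Hars2 and Nars2. For Hars2, the mitochondrial histidyl enzyme, neither P without stress nor FM with stress was well above background. Of the 35 that passed, 16 had several probes. Over these 16 the median SD between probes was 0.13 for the change in log2 P/FM, against 0.32 over 3438 mRNAs with several probes. The SD of the change in A over the 16 was 0.28 at the median.

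In control cells nearly all synthetase mRNAs had more signal in polysomes than outside them. log2 P/FM was 0 or more in 17 of 18 cytosolic, 2 of 2 dual and 14 of 15 mitochondrial mRNAs, against 63.5% of all coding mRNAs. The median was 0.84 for the cytosolic group (SD 0.78), 0.45 for the mitochondrial group (SD 0.59) and 0.34 for all coding mRNAs, where the SD describes the spread between genes. The exceptions were Qars, the glutaminyl enzyme, at -0.72, and Lars2 at -0.88. The highest value was that of Hars, the histidyl enzyme, at 2.59, followed by Wars at 2.0, Gars at 1.97, Yars at 1.94 and Rars at 1.79. The last 4 lay within 0.29, the median SD between probes, of a neighbour in this order, and Hars stood above them by more than that. In the mitochondrial group the levels ran from 1.34 for Ears2 down to 0.06 for Sars2 among mRNAs other than Lars2.

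Under stress the values of both groups were spread more widely, and most mitochondrial values lay below 0. log2 P/FM was 0 or more in 13 of 18 cytosolic, 1 of 2 dual and 4 of 15 mitochondrial mRNAs, against 37.4% of all coding mRNAs. The cytosolic median was 0.71 (SD 0.98) and the mitochondrial median -0.40 (SD 1.21), with all coding mRNAs at -0.29. Without Lars2 the mitochondrial SD was 0.46 in control and 0.77 under stress. The gap between the cytosolic and the mitochondrial median was 0.39 without stress and 1.11 with it, or 0.36 and 1.02 without Lars2. The median change was -0.74 for the cytosolic group and -1.01 for the mitochondrial group. The gap between these changes was 0.27, fell to 0.09 without Lars2, and turned its sign to -0.10 with normexp background correction and to -0.13 with no filter on A.

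**Figure D1:**
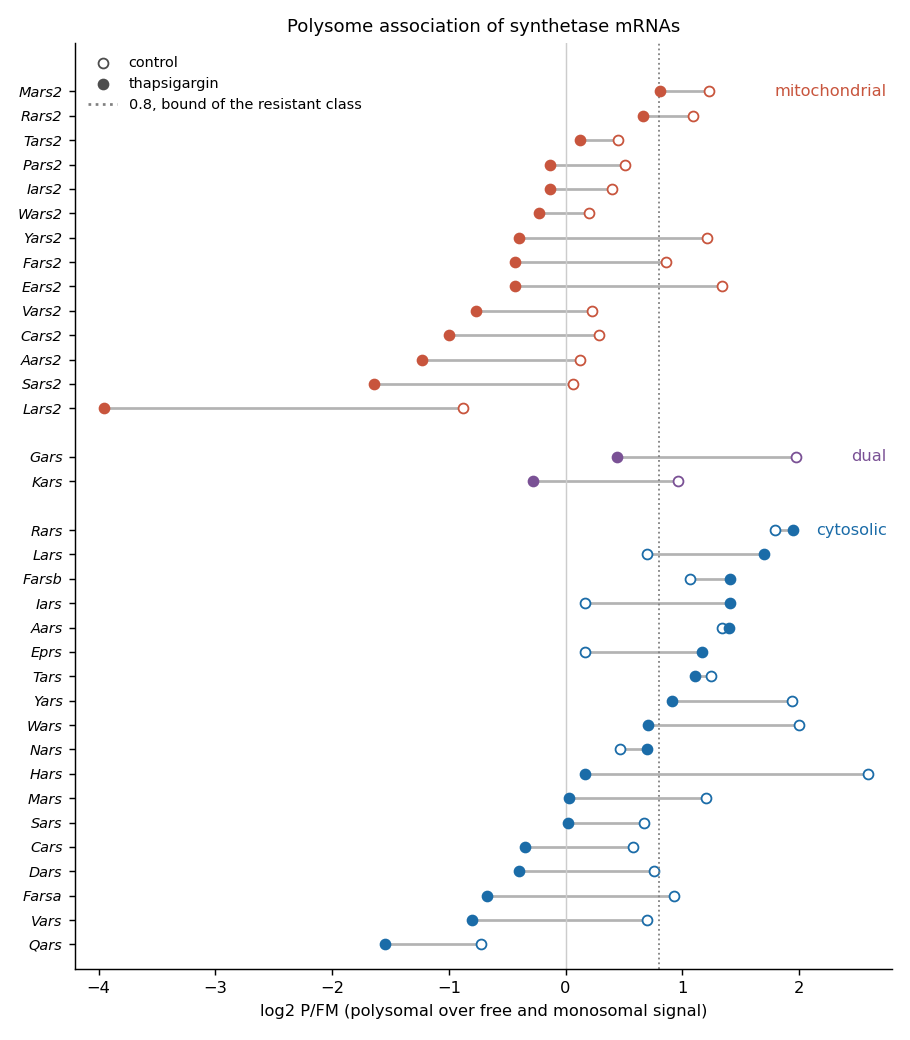
log2 P/FM (horizontal axis, log2 units) of 34 of the 35 synthetase mRNAs above the filter, in control (open circles) and thapsigargin-treated cells (filled circles), 1 array each, ordered within each group by the value under stress. Lars, Iars and Eprs move to the right and end above the dotted line at 0.8, while Hars and Lars2 move furthest to the left among cytosolic and mitochondrial mRNAs.

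The study sorted mRNAs into classes, which were counted here for the synthetases. The resistant class required log2 P/FM to reach 0.8 in control and in stressed cells. There were 5 of 18 cytosolic mRNAs in this class (Aars, Farsb, Rars, Tars and Yars), 0 of 2 dual and 2 of 15 mitochondrial mRNAs, Mars2 among them, where 3.00% of all coding mRNAs were resistant. Sensitive mRNAs changed by -0.8 or lower. There were 9 of 18 cytosolic, 2 of 2 dual and 8 of 15 mitochondrial mRNAs in this class (7 of 14 without Lars2), against 47.0% of all coding mRNAs. None of the 35 was inducible, which required a control value of 0 or lower and a rise of 1 or more, against 8.86% of all coding mRNAs. Only Qars and Lars2 had such a control value, while 63.5% of all coding mRNAs were at 0 or more in control. The control levels thus largely set this count, and it is not read as a response to stress. With 1 array per condition none of these counts carries a test.

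Iars, Eprs and Lars had the 3 highest changes of all 35 mRNAs. Iars, the isoleucyl enzyme, gave a P signal of 173 in control and 706 in stressed cells, and an FM signal of 154 and 265. Its log2 P/FM went from 0.17 to 1.41, a change of 1.24 ± 0.11 (SD between 2 probes). Both fractions were brighter under stress, and P by more.

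Eprs, which carries the glutamyl and the prolyl enzyme in 1 chain, gave a P signal of 160 in control and 765 in stressed cells, and an FM signal of 142 and 341. Its log2 P/FM went from 0.17 to 1.17, a change of 1.00 ± 0.37 (SD between 4 probes, from 0.54 to 1.43). Lars, the leucyl enzyme, gave a P signal of 537 and 1977 and an FM signal of 330 and 610, and its log2 P/FM went from 0.70 to 1.70, a change of 0.99 ± 0.40 (SD between 3 probes). The controls of all 3 lay above 0, which kept them out of the inducible class, and below 0.8, which kept them out of the resistant class. For Iars and Eprs the control of 0.17 was smaller than the SD between probes, 0.46 and 0.35. A probe of Iars (-0.16, change 1.32) and a probe of Eprs (-0.32, change 1.43) met the inducible rule. By mRNA, 3 cytosolic members met it with normexp, 4 after loess and 2 after centring. The changes of Iars, Eprs and Lars were above 0 in each of 8 settings of background and scaling, the main setting included, from 0.94 to 3.79. They were the 3 highest in 7 of the 8. Centring and spike-in scaling move all mRNAs of an array by 1 amount, so those settings could not alter the order. With normexp Rars, at 1.43, came between Iars at 1.48 and the other two.

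The resistant cytosolic mRNAs differed in whether their signal grew. Aars, the alanyl enzyme, had a P signal of 999 in control and 2685 in stressed cells and an FM signal of 394 and 1019. Both fractions grew alike, so that log2 P/FM was 1.34 and 1.40 while A was 1.40 higher. Tars, the threonyl enzyme, had a P signal of 672 and 1514 and an FM signal of 283 and 703, with log2 P/FM of 1.25 and 1.11.

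Rars, the arginyl enzyme, had a P signal of 163 in control and 341 in stressed cells and an FM signal of 47.2 and 88.1, with log2 P/FM of 1.79 and 1.95, the highest of the 35 under stress. Farsb, the beta subunit of the phenylalanyl enzyme, had a P signal of 153 and 194 and an FM signal of 73.0 and 72.9, with log2 P/FM of 1.07 and 1.41. It was the 1 synthetase mRNA of 35 whose FM signal was not higher under stress. Yars, the tyrosyl enzyme, had a P signal of 2606 and 2964 and an FM signal of 681 and 1579, so its log2 P/FM was 1.94 and 0.91. It met the rule for the resistant class and, with a change of -1.03, also that for the sensitive class.

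The remaining cytosolic mRNAs above the sensitive bound were Nars, the asparaginyl enzyme, at 0.47 in control and 0.70 in stressed cells, and Sars, the seryl enzyme, at 0.67 and 0.02. Wars, the tryptophanyl enzyme, was at 0.71 under stress and so lay just outside the resistant class, with Mars2 at 0.81 just inside it.

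Hars, Farsa and Vars had the lowest changes of the cytosolic group. Hars had a P signal of 2657 in control and 1726 in stressed cells and an FM signal of 440 and 1536, and its log2 P/FM went from 2.59 to 0.17. The mRNA with the highest polysome association of the 35 in control cells thus had the lowest change of the cytosolic group, -2.42, on 1 probe. Farsa, the alpha subunit of the phenylalanyl enzyme, had a P signal of 987 and 866 and an FM signal of 519 and 1380, and Vars, the valyl enzyme, a P signal of 816 and 942 and an FM signal of 501 and 1642. Their log2 P/FM went from 0.93 to -0.67 and from 0.70 to -0.80.

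The subunits of the phenylalanyl enzyme, which works as a tetramer of both chains, therefore parted. Farsb changed by 0.34 on 1 probe and Farsa by -1.60 ± 0.14 (SD between 3 probes). Set against the median of mRNAs of like brightness, the differences were 0.56 for Farsb and -0.34 for Farsa. Other sensitive cytosolic mRNAs were Wars at -1.29, Mars at -1.18, Dars at -1.16, Cars at -0.93 and Qars at -0.83. Among these, Mars had 1.20 and 0.03, and the aspartyl enzyme Dars 0.76 and -0.40. The dual mRNAs were both sensitive, with 1.97 and 0.44 for Gars, the glycyl enzyme, and 0.96 and -0.28 for Kars, the lysyl enzyme, on 1 probe each.

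A was higher under stress in 18 of 18 cytosolic, 1 of 2 dual and 13 of 15 mitochondrial mRNAs, against 76.8% of all coding mRNAs. A higher A is not always more signal in sum. For Hars it was 0.59 higher while P went from 2657 to 1726 and FM from 440 to 1536. The median change in A was 0.87 for the cytosolic group (SD 0.45), 0.36 for the dual group, 0.49 for the mitochondrial group (SD 0.43, and 0.50 without Lars2) and 0.37 for all coding mRNAs. The change was above the median of all coding mRNAs in 16 of 18 cytosolic and 9 of 15 mitochondrial mRNAs, and in 16 or 17 and 9 under the 5 other settings of background and normalization. The cytosolic excess over all mRNAs was 0.50 on the log2 scale and 0.44 to 0.91 in those settings. Loess within arrays leaves A unchanged, so that setting could not alter these values. With normexp the median of all mRNAs itself changed by -0.57, so that the mitochondrial median change in A was -0.50.

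An increase of 1 or more in A was seen for 7 of 18 cytosolic and 2 of 15 mitochondrial mRNAs, against 11.7% of all coding mRNAs, and a decrease of 1 or more for none, against 0.698%. The 7 were Eprs with 1.76, Iars with 1.41, Aars with 1.40, Lars with 1.38, Cars with 1.34, Tars with 1.24 and Dars with 1.07, and the other two were Ears2 with 1.26 and Rars2 with 1.08. Eprs lay above the next by more than the SD of 0.29 between its 4 probes, and no other neighbours in this order lay that far apart. Cars, the cysteinyl enzyme, had a P signal of 458 in control and 842 in stressed cells and an FM signal of 307 and 1073. Dars had a P signal of 159 and 225 and an FM signal of 94.1 and 296. In both, as in Ears2, A was higher while log2 P/FM was lower.

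**Figure D2:**
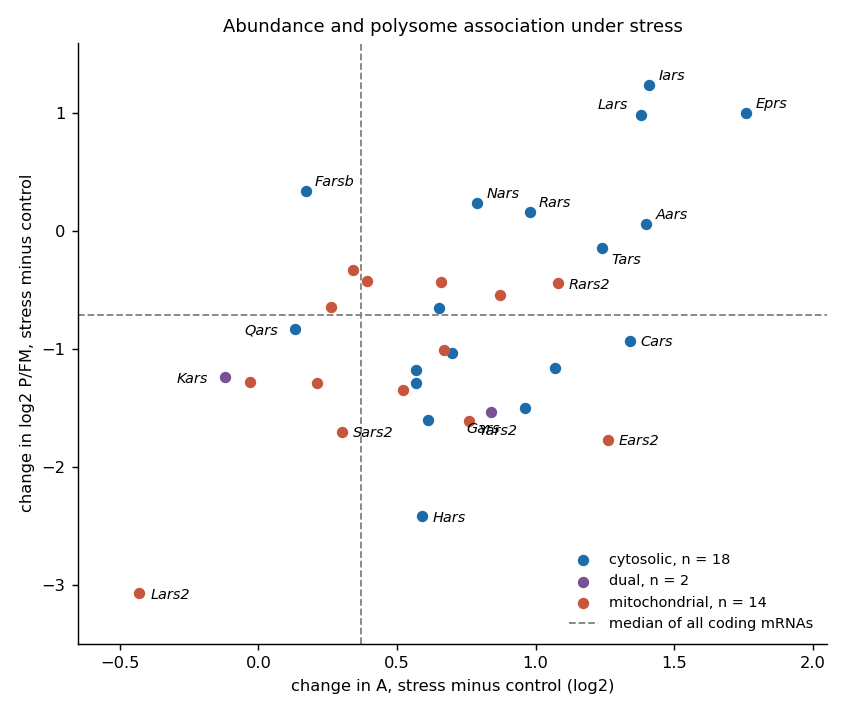
Change in A (horizontal axis) against change in log2 P/FM (vertical axis), both stress minus control in log2 units, for 34 of the 35 synthetase mRNAs, with dashed lines at the medians of all coding mRNAs (0.37 and -0.71). Eprs, Iars and Lars lie at the upper right, Aars and Tars below them, Cars and Ears2 at a like change in A with a lower ratio, and Lars2 alone at the lower left.

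The FM signal was higher under stress in 34 of 35 synthetase mRNAs, against 86.6% of all coding mRNAs, and the P signal in 22 of 35, against 50.7%. RNA input per channel differed between the arrays, so these counts are read only beside those of all coding mRNAs. The median change of the log2 P signal was 0.42 for cytosolic and 0.16 for mitochondrial mRNAs, and that of the log2 FM signal 1.21 and 1.1. Without Lars2 the mitochondrial medians were 0.17 and 1.0, and the groups then lay about as far apart in either fraction. Across the 35 mRNAs Pearson's r between the change in A and the change in log2 P/FM was 0.52, and 0.43 without Lars2, with 0.32 over all coding mRNAs. Both quantities come from the same 2 signals of the same 2 arrays, and genes are not independent replicates.

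On these arrays brighter spots had lower changes in log2 P/FM (r = -0.39 with mean A across 10033 mRNAs of the same 2 arrays), so each synthetase was also set against mRNAs of like brightness. In the range of A from 9 to 11 that held 10 cytosolic mRNAs the median change of all coding mRNAs was -1.26, and in the range from 7 to 9 that held 8 mitochondrial mRNAs it was -0.67. Against all mRNAs in their own range of A, 12 of 18 cytosolic and 3 of 15 mitochondrial mRNAs had the higher change, with median differences of 0.40 and -0.33 (3 of 14 and -0.32 without Lars2). The gap between the groups in the change of log2 P/FM was 0.99 after loess normalization within each array and 1.11 with the processed signals of the scanner software, against 0.27 without normalization. Without Lars2 these gaps were 0.83, 1.01 and 0.09. After loess the cytosolic median change was 0.27, with 12 of 18 above the median of all mRNAs, and the mitochondrial median change was -0.71, with 2 of 15 above it.

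Most mitochondrial mRNAs had a lower log2 P/FM under stress without normalization (with spike-in scaling all but Lars2 were higher). Mars2, the methionyl enzyme of mitochondria, had a P signal of 58.2 in control and 66.1 in stressed cells and an FM signal of 24.8 and 37.7, with log2 P/FM of 1.23 and 0.81. It rests on 1 probe and left the resistant class at a filter of A above 5.5.

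Rars2, the arginyl enzyme of mitochondria, had a P signal of 96.8 in control and 176 in stressed cells and an FM signal of 45.4 and 112, with log2 P/FM of 1.09 and 0.66. Ears2, the glutamyl enzyme, had a P signal of 238 and 308 and an FM signal of 94.0 and 416, with 1.34 and -0.43. The FM signal of Ears2 was 2.14 higher on the log2 scale, the highest such change among the 35. Sars2, the seryl enzyme, had a P signal of 188 and 128 and an FM signal of 180 and 401, with 0.06 and -1.64.

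The other sensitive mitochondrial mRNAs were Yars2 with a change of -1.61, Aars2 with -1.35, Fars2 with -1.29, Cars2 with -1.28 and Vars2 with -1.01. Their values under stress ran from -1.23 for Aars2 to -0.40 for Yars2. Smaller changes were those of Pars2 at -0.64, Iars2 at -0.54, Wars2 at -0.43 and Tars2 at -0.33. Of these Wars2 is uncertain, since its 3 probes gave -1.56, -0.75 and 1.02 and not all of them were well above background.

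Lars2, named for the mitochondrial leucyl enzyme, stood apart from every other synthetase. Its only probe had a P signal of 95235 in control and 24328 in stressed cells and an FM signal of 174783 and 374953, and its log2 P/FM went from -0.88 to -3.95. The array's own annotation assigns this probe to Lars2 and also to NR_003279, the 28S ribosomal RNA, and places it on the plus strand of chr9:123371116-123371175. Its first 30 of 60 bases are shown because the value rests on this probe alone.
Lars2: acgtcgctttttgatccttcgatgtcggct

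A separate probe for the 28S ribosomal RNA had log2 P/FM of -0.79 in control and -3.65 in stressed cells, and a pair of probes for the 18S ribosomal RNA changed by -3.01 and -3.46. The change of the Lars2 probe, -3.07, lay between those of the ribosomal RNA probes, -2.87 to -3.46. How much of its signal came from either RNA was not tested. The main gaps and counts are therefore given with and without it.

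Enzymes for the same amino acid were set side by side in 14 pairs, with Farsa and Farsb each against Fars2. The cytosolic mRNA had the higher log2 P/FM in 11 of 14 pairs in control and in 10 of 14 under stress, with median differences of 0.54 and 1.14. Its change was the higher one in 9 of 14 pairs, and its change in A in 10 of 14. Without the Lars2 pair these counts were 10, 9, 8 and 9 of 13.

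The widest differences other than that of leucine were those of Iars and Iars2 (1.24 and -0.54) and of Farsb and Fars2 (0.34 and -1.29). Aars and Aars2 differed almost as much, at 0.06 and -1.35. Without normalization the order was opposite for tryptophan, where Wars changed by -1.29 and Wars2 by -0.43, and likewise for Mars, Vars and Farsa against their partners. Wars2 is uncertain, as its probes gave changes of either sign. After loess Vars (-0.52) lay above Vars2 (-0.71) and Farsa (-0.62) above Fars2 (-1.14), while Wars and Mars stayed below their partners. Which compartment had the higher change thus differed between amino acids, and for Vars and Farsa with the normalization.

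**Figure D3:**
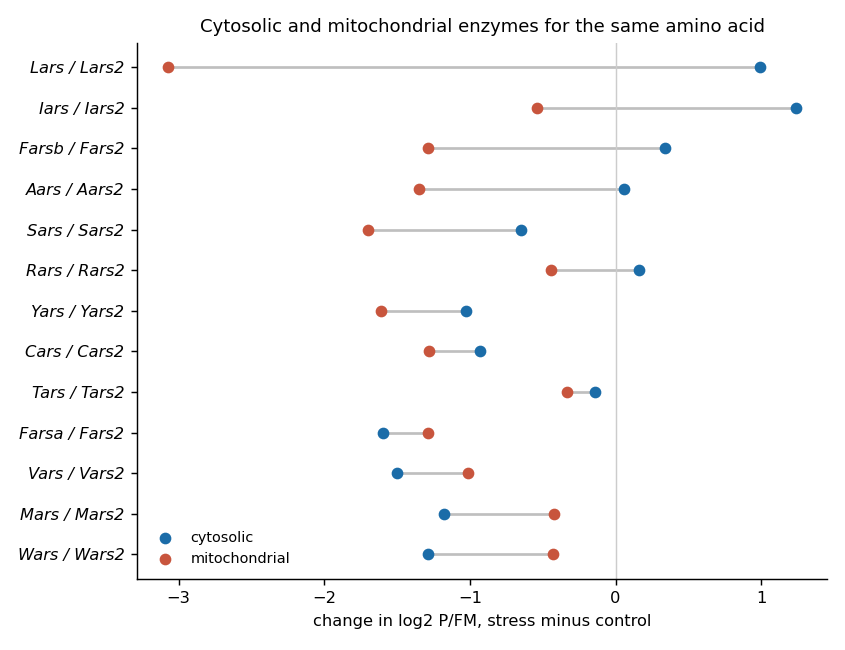
Change in log2 P/FM (horizontal axis, stress minus control) of the cytosolic and the mitochondrial enzyme for the same amino acid in 13 of the 14 pairs, 1 array per condition, ordered by the difference. The cytosolic point lies to the right in 9 pairs, from Lars and Lars2 down to Tars and Tars2, and to the left in 4, with Wars and Wars2 at the bottom.

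The multisynthetase complex holds 8 of the cytosolic and dual synthetases, and their mRNAs split evenly without normalization. Iars, Eprs, Lars and Rars changed by 1.24, 1.00, 0.99 and 0.16, whereas Qars, Dars, Mars and Kars changed by -0.83, -1.16, -1.18 and -1.24 and were all sensitive. No change lay between 0.16 and -0.83, a gap wider than the SD of 0.32 between probes, though Rars and Kars had 1 probe each. This gap closed after loess, where Rars, Qars and Kars changed by 0.31, 0.24 and -0.15. With the processed signals it closed too, and the 3 changed by 0.07, 0.20 and -0.04. Against mRNAs of like brightness, 6 of the 8 had the higher change. The median was -0.33 for the 8 and -0.98 for the 12 cytosolic and dual mRNAs outside the complex. The SD between genes was 1.09 and 0.86, and the ranges overlapped. The log2 P signal of Qars, Mars and Kars changed by -0.29, -0.02 and -0.74, and that of the other 5 was higher under stress.

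The scaffolds of the complex were not on the side of Iars, Eprs and Lars. Aimp1, which binds tRNA, went from 1.35 to -1.42. Aimp2, on which the complex assembles, went from 2.0 to 0.11, and Eef1e1 from 0.63 to -0.83. All 3 were sensitive, and all 3 had a lower P and a higher FM signal under stress.

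**Figure D4:**
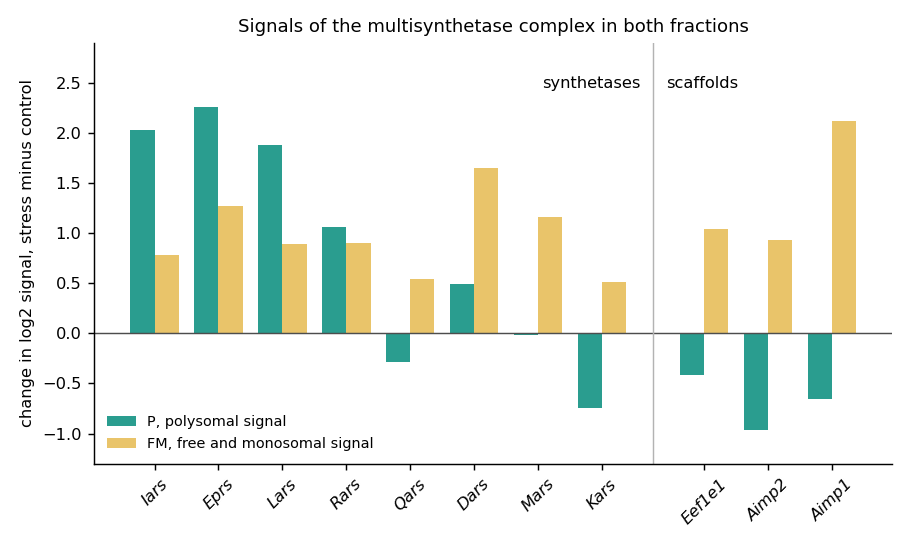
Change in the log2 P signal (green) and log2 FM signal (yellow), stress minus control, for the 8 synthetases of the multisynthetase complex and its 3 scaffolds, 1 array per condition. The P bar is the taller one for Iars, Eprs, Lars and Rars, and the FM bar stands above the P bar for the other 4 synthetases and for every scaffold.

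A list of 14 further genes of tRNA charging held the scaffolds, editing and deacylase factors, the mitochondrial amidotransferase and formyltransferase, the enzymes of selenocysteine synthesis, and Tarsl2, a relative of Tars outside the naming rule. Of these, 13 passed the filter (Prorsd1 did not), and 11 of the 13 were sensitive, against 47.0% of all coding mRNAs. Among the 11, Dtd2 is uncertain, since its 2 probes gave -2.3 and 0.15 and not all signals were well above background. For Tarsl2 the same held for FM in control. None was resistant, against 3.00%, and none had A higher by 1 or more, against 11.7%. Their median change was -1.53, against -0.93 for the 35 synthetases and -0.71 for all coding mRNAs. Dtd1, which removes D-amino acids from tRNA, went from 2.16 to -0.56, and the alanyl editing factor Aarsd1 from 1.41 to -1.13. The exceptions were Qrsl1, a subunit of the amidotransferase, with a change of 0.29, and Sepsecs, which makes selenocysteinyl-tRNA, with -0.12. The other amidotransferase subunits, Gatb and Gatc, changed by -1.53 and -1.92.

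Synthetases fall into 2 structural classes. Among cytosolic and dual mRNAs the median change was -0.93 for 9 class I and -0.90 for 10 class II enzymes, and among mitochondrial mRNAs -1.01 for 9 and -0.97 for 6. The cytosolic and dual medians of log2 P/FM were 0.70 and 1.01 in control and 0.71 and 0.30 in stressed cells. The median change in A was 0.96 and 0.72 for cytosolic and dual mRNAs, and 0.67 and 0.32 for mitochondrial mRNAs. Eprs, which holds an enzyme of each class, was left out.

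Promoters were searched for TGATGNAAN, the core of the C/EBP-ATF response element, on both strands. The RefSeq promoters of GRCm38.p6 run from 250 bases before to 50 bases after the gene start, and 27 of the 37 synthetase genes matched an entry. The motif stood in 4 of 11 cytosolic promoters (Aars, Iars, Tars and Yars), in 1 of 2 dual promoters (Gars) and in 0 of 15 promoters of 14 mitochondrial genes, against 3.95% of all 32851 promoters. An occurrence from each of these genes is shown in 30 bases, 5′ to 3′ in the direction of the gene, with the motif in capitals, which reads as its reverse complement in all but Yars.
Aars: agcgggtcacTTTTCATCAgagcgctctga
Iars: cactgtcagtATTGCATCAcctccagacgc
Tars: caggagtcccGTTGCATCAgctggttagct
Yars: cgagctcagcTGATGCAACccgacgggact
Gars: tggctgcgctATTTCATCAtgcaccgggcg

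These windows lie on the plus strand at chr8:111033840-111033869 for Aars, chr13:49682126-49682155 for Iars, chr4:129189896-129189925 for Yars and chr6:55037960-55037989 for Gars, and on the minus strand at chr15:11399655-11399684 for Tars. Relative to the gene start the motif shown begins at -31 in Gars and at -16 in Tars, and after the gene start in the rest. Aars holds another match, not shown, that begins at -113. Of the 5 genes with the motif, Aars, Iars and Tars had A higher by 1 or more, with 1.40, 1.41 and 1.24, whereas Yars and Gars had 0.70 and 0.84. Such an increase was seen in 7 of 18 cytosolic mRNAs and in 11.7% of all coding mRNAs, and Eprs and Dars had it with no match in their promoters. Cars and Lars had it too, and no match was found for them. Promoters of only 11 of the 18 cytosolic genes were searched, so a missing match can also mean a missing promoter entry. In log2 P/FM the 5 genes with the motif ranged from the highest change of all 35, that of Iars, to -1.53 for Gars. A match of these letters is a description of the sequence, and whether a factor binds there was not tested.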

How the data were processed

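Per the labels, the Cy3 channel held P RNA and the Cy5 channel FM RNA, 300 ng in all, and RNA of 3 preparations was pooled for each of 2 arrays on 1 slide. Per the file headers, spot and background intensity values came from Agilent Feature Extraction 10.7.1 without normalization, and flags of 0 or 1 mark outlier, saturated and well-above-background spots. A second deposited intensity column had been background-subtracted and dye-normalized by that software. The authors also deposited log2 values of P over FM that were not normalized, used here as an alternative, with 35 synthetases in the table.

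Mean spot signals were reduced by the median of the local background, down to a floor of 0.5 (limma 3.58.1, R 4.3.3), the background method the study names. No normalization was applied, since the proportions of both fractions, which the study kept for labelling, carry the measurement. Outlier spots (295 of 43379) were left out, spots were averaged per probe and probes per accession, and accessions needed A above 4.5 on both arrays. Without normalization the dye and scanner settings enter every level, and a fold is bounded by background for dim probes. Values were computed in Python 3.11.15 with pandas 2.3.3, and the steps were tested on simulated data, along with the direction of each alternative.

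Named genes are the members above the filter (the values of 1 are not reported here), with signals for those that were resistant, changed by 1 or more in A, or had the 3 lowest changes of a group. Members and lists were chosen with earlier results of these data known. Current RefSeq symbols matched all 38 accessions. The 2 arrays limit the precision of every value, and with 1 array per group no test was made. The alternatives were other background corrections, signals, normalizations, filters, units and groupings.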

Additional observations from a re-analysis of the deposited data

How the results depend on the processing

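The 20 reported group values were recomputed under 20 alternatives, with 15 of them under the deposited log2 ratios, which give no A. Of the alternatives, the omission of Lars2 and of members with 1 probe were chosen after seeing the data. Of 395 values, 313 stayed within the spread between probes (or, for counts, within 1.5 times), and 10 turned their sign. Part of the 313 could not move. No synthetase spot was an outlier, current symbols gave the same members, and leaving out Lars2 does not touch cytosolic values. The 15 values under the deposited ratios equalled the main ones. The count of 313 is thus not a measure of robustness. The gap between the cytosolic and mitochondrial medians kept its direction in all alternatives for log2 P/FM in stress (0.87 to 1.38), for log2 P/FM in control (0.09 to 0.53) and for the change in A (0.25 to 0.84), but not for the change in log2 P/FM (-0.16 to 1.11). The cause of these shifts was not tested, except that centring and spike-in scaling move all mRNAs of an array by 1 amount.

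Values are given as cytosolic, then mitochondrial, where both moved. With normexp the median log2 P/FM in control was 0.27 and -0.26, the median change -0.19 and -0.10 (gap -0.10) and the median change in A 0.34 and -0.50 (gap 0.84), with 1 and 0 resistant, 3 and 2 sensitive, 3 cytosolic inducible, and 0 and 0 mRNAs with A higher by 1. With no background subtraction 1 cytosolic mRNA was inducible, 0 mitochondrial mRNAs were resistant and 1 had A higher by 1. With the processed signals the control gap was 0.09, the cytosolic median in stress 1.12, its change 0.27 (gap 1.11) and the change in A 0.46 and 0.09, with 4 cytosolic sensitive and 4 and 0 with A higher by 1. With loess the cytosolic median was 0.45 in control and 1.04 in stress, its change 0.27 (gap 0.99), with 2 cytosolic sensitive and 4 inducible. After centring the medians were 0.51 and 0.11 in control and 1.00 and -0.11 in stress, the changes -0.11 and -0.38 and the changes in A 0.50 and 0.11, with 3 and 4 sensitive, 2 cytosolic inducible, 1 mitochondrial resistant, and 4 and 0 with A higher by 1. With spike-in scaling the medians were 1.25 and 0.86 in control and 3.66 and 2.55 in stress, the changes 1.81 and 1.54 and the changes in A 1.16 and 0.78, with 15 and 9 resistant, 0 and 0 sensitive, 1 cytosolic inducible and 4 mitochondrial with A higher by 1.

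At A above 5.5, 1 mitochondrial mRNA was resistant. At A above 7, 3 and 1 were resistant and 1 mitochondrial mRNA had A higher by 1. With no filter the mitochondrial median change was -0.64 (gap -0.13), and 1 mitochondrial mRNA was inducible. With each probe as a unit, where counts are of 35 and 20 probes, 9 cytosolic were resistant, 17 sensitive, 2 inducible and 18 with A higher by 1, 1 mitochondrial was inducible, and the gap in A was 0.63. With members of several probes alone (12 and 4 mRNAs) the cytosolic median in stress was 0.37, the gap in change -0.16, the cytosolic change in A 1.16 (gap 0.66), with 2 and 0 resistant, 2 mitochondrial sensitive and 0 with A higher by 1. Without Lars2, and under the other 8 alternatives, every value stayed within these bounds. No paired analysis was possible because each condition has 1 array. Signals near background limit Wars2, Hars2, Nars2 and the second Dars accession, and among the further genes of tRNA charging Prorsd1, Dtd2 and Tarsl2.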
